A study of Mus musculus with 20 samples.

Results

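The transcripts of imprinted genes were followed through the neural differentiation of a control line and an HPRT knockdown line of mouse embryonic stem cells. The genes were taken from a list of 37 symbols, matched by gene symbol in the deposited tables and grouped by cluster and by the parental allele they are known to express. The tables held 36 of the 37 symbols among 37561 genes. The symbol Ddc-as had no row there. Both lines were ESD3 cells of the mouse strain 129s2/SvPas, maintained on primary mouse embryo fibroblast feeders. The control line carried a short hairpin RNA against luciferase, which mouse cells lack, and the knockdown line a hairpin against HPRT, the enzyme that salvages hypoxanthine and guanine. Per the study's methods the hairpin vectors were lentiviral and transduced cells were selected with puromycin, while the labels call the virus a retrovirus. Cells of both lines had passed through the spherical neural mass stage (SNM), a culture of neural precursors, and were differentiated toward dopaminergic neurons. Cells were collected for RNA-seq each day up to day 4 (from day 0) and every other day between days 6 and 14, with 1 library per line and day and 20 libraries in all. Each line was made once, RNAs collected at one time were pooled, and a line's days came from repeated sampling of the same line. The tests below therefore ask whether a difference recurred over days, and the hairpin cannot be told apart from other differences between these 2 lines.

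Imprinted genes are transcribed mainly from the allele inherited from the mother or mainly from the allele inherited from the father. Most lie in clusters, in which a stretch of DNA methylated in only one parental germline, the imprinting control region, sets the expression of several neighbors. Many act on fetal growth: Igf2, a paternally expressed growth factor, and H19, a maternally expressed noncoding RNA beside it, are the textbook pair. Others, such as Ndn, Magel2, Peg3 and Nnat, are prominent in the developing nervous system. Because an inbred strain carries identical sequences on both parental chromosomes, reads of these cells do not show the allele they came from. The parental labels used here are background knowledge, and loss or gain of imprinting was not measured.

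Ratios are log2 values of the knockdown over the control library within a day, and the tables were normalized separately by the authors. A value at or below 1 normalized read had entered the tables as 1, so that large ratios of weakly expressed genes are understated. Size factors of the libraries, recovered from the deposited values, ranged from 0.784 to 1.51. The study's methods give the read number only as an average, so the depth of each library is unknown. Normalized read counts were recovered for 17 of the 32 imprinted genes tested and are given where they exist. The targeted gene Hprt had fewer reads in the knockdown library on all 9 tested days, with a mean ratio of -4.0 ± 0.89 (SD, n = 9 days; adjusted p = 1.2e-05 in limma) and normalized counts of 839 against 144 on day 0 and 670 against 20.8 on day 14. Of the 36 genes, 32 had a typical level of at least 4 on the log2 scale of normalized counts and were tested among the 13339 genes that passed this filter. Phlda2, Slc22a18, Ascl2 and Nespas did not pass.

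Among the imprinted genes, those past 2-fold were mostly higher in the knockdown library on day 0 and lower on days 3, 6, 10, 12 and 14. On day 0, 11 of the 32 were at least 2-fold higher in the knockdown library, against 12.1% of all genes tested. On day 3, 12 of the 32 were at least 2-fold lower, against 6.87% of all genes, and none was 2-fold higher. Day 6 had 8 lower, against 7.78%, and none higher. On days 1, 2, 4 and 8 there were 3 to 6 lower (9.38% to 18.8%), against 5.62% to 12.9% of all genes. On the same days 4 or 5 were higher (12.5% to 15.6%), against 7.49% to 9.87%. On day 10, 17 of the 32 were at least 2-fold lower, against 11.3% of all genes. The count was 19 on day 12, against 11.5%, and 18 on day 14, against 10.7%. On days 10, 12 and 14 none of the 32 was 2-fold higher in the knockdown library. The median ratio of the 32 genes began at 0.48 (day 0). It was -0.76 for day 3, 0.12 for day 4 and 0.05 for day 8, and stood at -1.08, -1.35 and -1.30 on days 10, 12 and 14, while the median over all genes stayed between -0.0344 and 0.014. These are single libraries per line and day, and no test was made for a day.

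**Figure D1:**
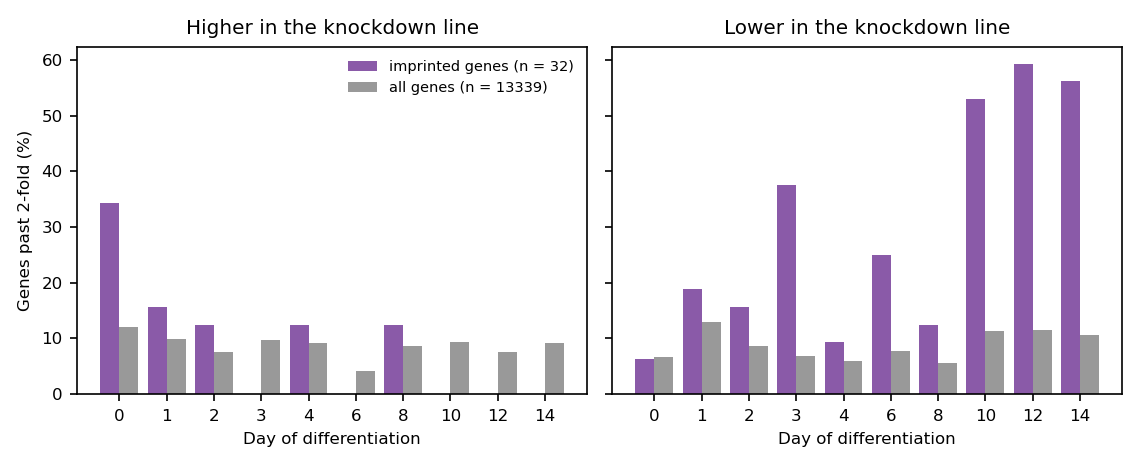
Share of genes (%) at least 2-fold higher (left) or lower (right) in the knockdown library on each day of differentiation, for 32 imprinted genes (purple) and all 13339 genes tested (grey). The purple bar is far above the grey one on the left on day 0. On the right it is so on days 3 and 6, with 12 and 8 of the 32 genes 2-fold lower, and on days 10, 12 and 14, with 17, 19 and 18.

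The change of the ratio with time was tested with limma as its slope on day, without day 6. The ratio fell for 12 of the 32 imprinted genes (adjusted p under 0.05), against 6.74% of all genes tested, and rose for none, against 7.51%. The 12 were Peg3, Usp29 and Zim1 of the Peg3 cluster, Dlk1 and Rtl1 of the Dlk1-Meg3 cluster, Mest and Copg2, Ndn and Magel2, and Plagl1, Nnat and Kcnq1ot1. Counted without regard to the test, 25 of the 32 slopes were negative, and the median slope was -0.13 per day against 0.01 over all genes. These calls depended on the late libraries and on day 0. Without day 10, 8 imprinted genes were called. Of the 12, 4 remained without day 12 (Zim1, Mest, Copg2 and Ndn) and 4 without day 14 (Zim1, Rtl1, Copg2 and Ndn). The calls of Peg3, Usp29, Dlk1, Plagl1 and Kcnq1ot1 were lost without day 0. Over all genes the calls went from 1901 to 1314 without day 0, 1066 without day 10, 614 without day 12 and 854 without day 14. Zim1, Copg2 and Ndn were called under each alternative run.

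In the control line 15 of the 32 genes rose with time, against 19.5% of all genes, and 2 fell, against 23.9%. The 15 were H19, Igf2, Usp29, Zim1, Dlk1, Rtl1, Meg3, Rian, Mirg, Copg2, Plagl1, Cdkn1c, Ndn, Zrsr1 and Dcn, and the 2 were Peg12 and Impact. The rise of Cdkn1c, Mirg and Dlk1 lost its call in several of the fits that left out a day, that of Igf2 without day 14 (adjusted p = 0.072). Of the 17 calls, 11 held under each alternative in which the gene was tested. In the knockdown line 4 rose (Meg3, Sgce, Zrsr1 and Dcn), against 7.24% of all genes. There 9 fell, against 5.38%: Peg3, Mest, Copg2, Peg10, Kcnq1ot1, Ndn, Magel2, Peg12 and Nnat. The knockdown count of 13 dropped to 2 without day 14 and to 3 without day 12. These comparisons and the slope of the ratio use the same libraries and are not independent of each other.

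**Figure D2:**
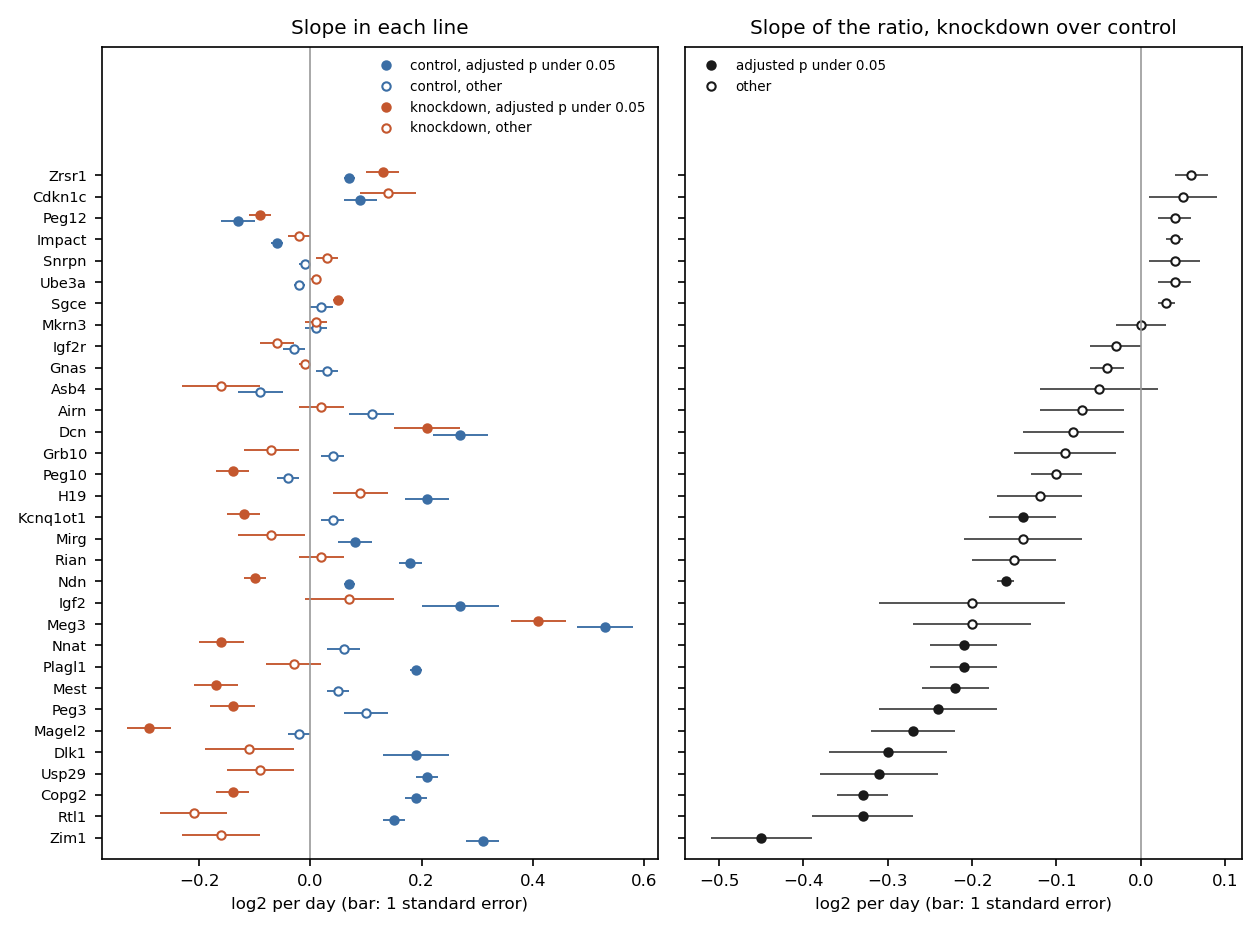
Slopes of the 32 imprinted genes on day of differentiation (log2 per day), with bars of 1 standard error, in the control line (blue) and the knockdown line (orange) on the left and for the ratio of the lines on the right. Filled points have an adjusted p under 0.05. The 12 filled points on the right all lie below 0, from -0.14 for Kcnq1ot1 to -0.45 for Zim1.

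Over the whole course, 9 of the 32 genes were lower in the knockdown line (H19, Igf2, Zim1, Mirg, Peg10, Cdkn1c, Snrpn, Mkrn3 and Peg12), against 26.7% of all genes. Higher were 3 (Sgce, Kcnq1ot1 and Gnas), against 26.3%. In percent, 28.1% of the imprinted genes were lower, which is near the share among all genes, and 9.38% higher. The median of the mean ratio was -0.44 against 0.00 over all genes. Cdkn1c, Snrpn, Peg12, Zim1, Sgce and Gnas kept their calls under each alternative in which they were tested.

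**Figure D3:**
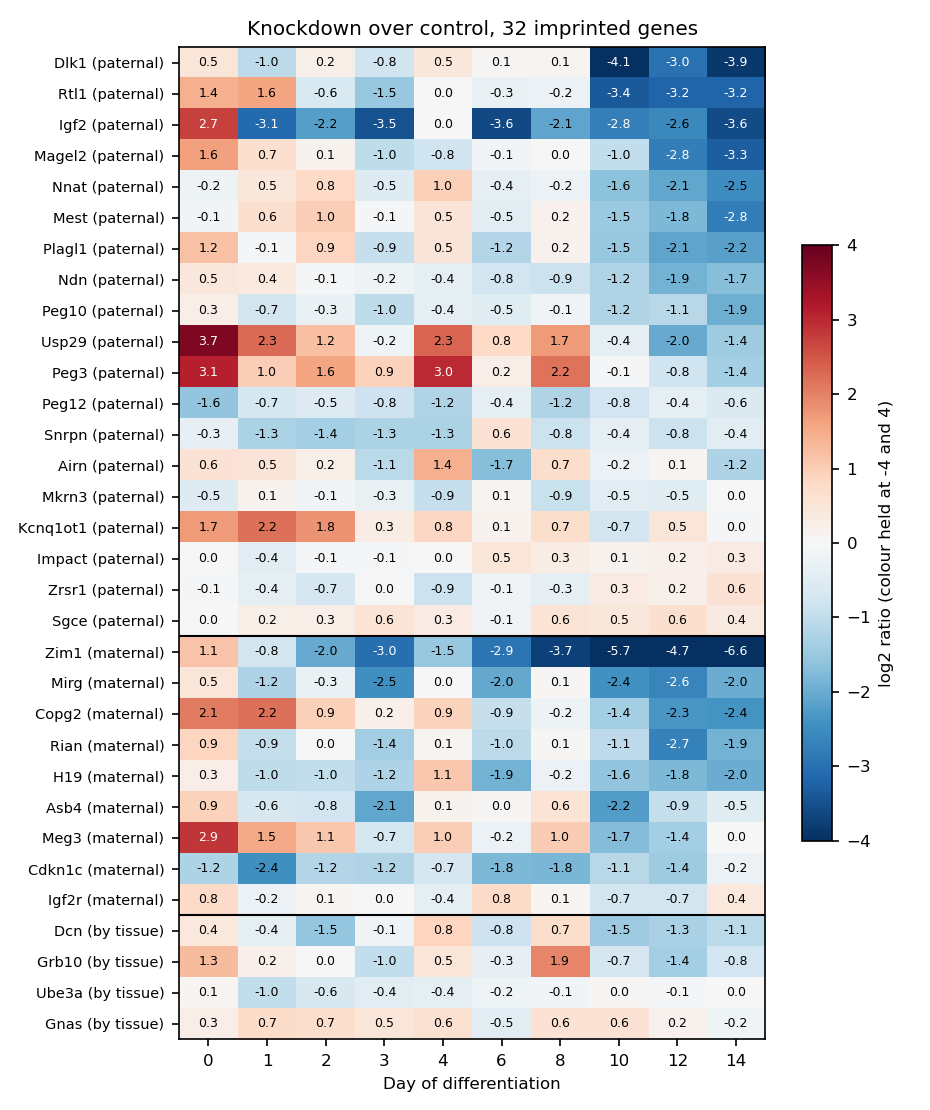
Log2 ratio of the knockdown over the control library for 32 imprinted genes (rows) on 10 days (columns), grouped by the parental allele known to be expressed and ordered by the mean of days 10, 12 and 14. Blue cells are lower and red cells higher in the knockdown line. Blue fills the last 3 columns in the upper rows of the paternal and maternal groups, down to -6.62 for Zim1 on day 14.

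The Dlk1-Meg3 cluster of chromosome 12 held 5 members. Dlk1 (Gene ID 13386, NCBIM37 chromosome 12, 110691033 to 110701546, plus strand) encodes a paternally expressed membrane ligand related to Notch ligands. Its normalized count in the control line was 3915, 1614, 1138, 808, 786, 1207, 2864, 4552, 5886 and 10565 from day 0 to day 14. In the knockdown line it was 5385, 798, 1326, 457, 1086, 1277, 3050, 261, 744 and 730 on the same days. The lines crossed repeatedly until day 8 and parted at day 10, where the knockdown library held 261 against 4552. The Dlk1 ratios of days 0 to 8 lay between -1.04 and 0.47, and those of days 10, 12 and 14 were -4.12, -2.99 and -3.85. Dlk1 rose in the control line by 0.19 ± 0.06 (SE) per day (adjusted p = 0.026). Its ratio fell by 0.30 ± 0.07 per day (adjusted p = 0.029), a call lost when day 0, 2, 10, 12 or 14 was left out. The mean ratio of -1.28 did not pass the test (adjusted p = 0.077).

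Rtl1 (Gene ID 353326), a paternally expressed gene derived from a retrotransposon and needed in the placenta, followed Dlk1 at a lower level. Its normalized counts in the control line were 24.5, 14.9, 29.1, 20.4, 20.0, 24.5, 22.1, 33.6, 55.1 and 70.3 from day 0 to day 14. Those of the knockdown line were 64.9, 45.7, 18.8, 7.12, 19.9, 20.7, 18.6, 3.23, 6.03 and 7.57. The knockdown line thus held more Rtl1 reads than the control on days 0 and 1 and fewer on days 10, 12 and 14. The ratio fell by 0.33 ± 0.06 (SE) per day (adjusted p = 0.015), which became 0.053 without day 12. Annotated miRNA genes lie on the opposite strand of Rtl1, and the library kit does not mark strand, so reads of the opposite strands cannot be told apart.

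Meg3, Rian and Mirg are maternally expressed noncoding RNAs of the same cluster, which host small nucleolar RNAs and miRNAs. The Meg3 ratio (Gene ID 17263, NCBIM37 chromosome 12, 110779211 to 110809936, plus strand) was 2.87, 1.52, 1.09, -0.70, 0.99, -0.24, 1.00, -1.74, -1.36 and 0.00 from day 0 to day 14. Meg3 rose in both lines, by 0.53 ± 0.05 (SE) per day in the control (adjusted p = 0.00028) and by 0.41 ± 0.05 per day in the knockdown line (adjusted p = 0.0046). It was the member with the steepest rise in either line, although its tables differed among themselves by up to 0.74 on the log2 scale.

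For Rian (Gene ID 75745) the ratios were 0.87, -0.95, -0.03, -1.39, 0.10, -1.04, 0.05, -1.06, -2.69 and -1.88 from day 0 to day 14. Rian rose in the control line by 0.18 ± 0.02 (SE) per day (adjusted p = 0.00062), and its slope in the knockdown line was 0.02 ± 0.04. The tables of Rian differed among themselves by up to 0.29 on the log2 scale. Mirg (Gene ID 100040724) had ratios of 0.48, -1.24, -0.26, -2.46, 0.03, -2.05, 0.05, -2.43, -2.63 and -1.97 on those days. It was lower in the knockdown line over the course, with a mean of -1.16 ± 1.25 (SD, n = 9 days; adjusted p = 0.025; exact sign-flip permutation p = 0.0469, two-sided). The sign-flip p is unadjusted, and after adjustment that test did not call Mirg. The limma call was lost when day 3, 10, 12 or 14 was left out. Across the 9 days the ratios of the 5 members went together, with Pearson's r between 0.75 (Rtl1 and Rian) and 0.92 (Rian and Mirg) for the 10 pairs. The pairs included paternally and maternally expressed members. The points of each pair share the libraries of a day. Pairs of genes from different clusters were not compared, so whether this likeness is particular to the cluster was not tested.

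**Figure D4:**
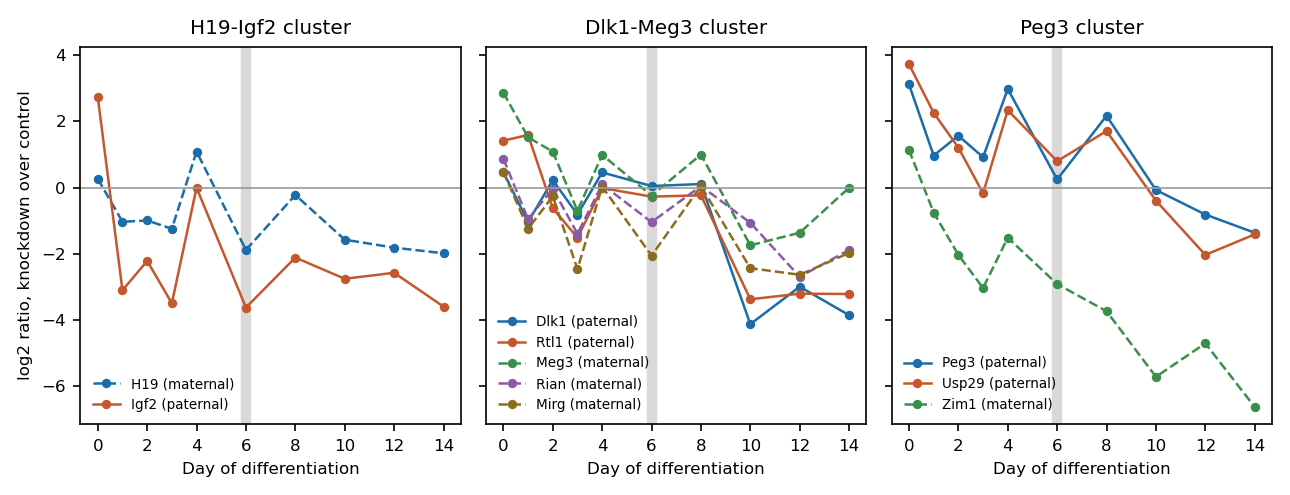
Log2 ratio of the knockdown over the control library by day for the members of 3 clusters, paternally expressed genes with solid lines and maternally expressed genes with dashed lines. The grey band marks day 6, which was left out of the tests. Within the Dlk1-Meg3 cluster Rtl1 (1.59) and Meg3 (1.52) lie above 0 on day 1 and the other 3 genes below, and the ratios of day 14 spread from 0.00 for Meg3 to -3.85 for Dlk1. Zim1 reaches -6.62 on day 14.

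The Peg3 cluster of chromosome 7 held 3 members. Peg3 (Gene ID 18616, NCBIM37 chromosome 7, 6656603 to 6683132, minus strand) encodes a paternally expressed zinc finger protein. Its ratio was 3.12, 0.97, 1.57, 0.92, 2.98, 0.25, 2.17, -0.07, -0.81 and -1.36 from day 0 to day 14. Peg3 was thus higher in the knockdown library from day 0 to day 8 and lower from day 10 on. The slope of the ratio was -0.24 ± 0.07 (SE) per day (adjusted p = 0.041), while the mean ratio, 1.05, had an adjusted p of 0.084. Usp29 (Gene ID 57775), named for its likeness to ubiquitin-specific proteases, starts beside Peg3 on the opposite strand, and the RefSeq promoter windows of the 2 genes share 263 of their 300 bases. Its ratios were 3.73, 2.26, 1.21, -0.17, 2.34, 0.80, 1.71, -0.39, -2.03 and -1.41 from day 0 to day 14. Pearson's r of the Peg3 and Usp29 ratios over the 9 days was 0.91. The Usp29 ratio fell by 0.31 ± 0.07 (SE) per day (adjusted p = 0.026). The Peg3 call was lost without day 0, 2, 10, 12 or 14 and that of Usp29 without day 0, 1, 10, 12 or 14.

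Zim1 (Gene ID 22776, NCBIM37 chromosome 7, 6628154 to 6649161, minus strand), a maternally expressed zinc finger gene next to Peg3, had the lowest mean ratio of the members tested. Its ratio was 1.14, -0.75, -2.03, -3.03, -1.51, -2.91, -3.73, -5.71, -4.70 and -6.62 from day 0 to day 14. The mean was -2.99 ± 2.48 (SD, n = 9 days), a 7.96-fold lower level in the knockdown line (adjusted p = 0.0069; exact sign-flip permutation p = 0.0117, two-sided). Zim1 rose in the control line by 0.31 ± 0.03 (SE) per day (adjusted p = 0.0005), while its slope in the knockdown line was -0.16 ± 0.07. The slope of the ratio was -0.45 ± 0.06 per day (adjusted p = 0.0056). Over days 10, 12 and 14 the geometric mean in the control line was 51.2 times that of the knockdown line. The tables of Zim1 differed among themselves by up to 0.54 and those of Usp29 by up to 0.23, so their sizes depend on the table used.

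The H19-Igf2 cluster lies at the end of chromosome 7. H19 (Gene ID 14955, NCBIM37 chromosome 7, 149761434 to 149764048, minus strand) had ratios of 0.27, -1.03, -0.99, -1.24, 1.09, -1.88, -0.22, -1.57, -1.81 and -1.98 from day 0 to day 14. It was higher in the knockdown library on days 0 and 4 and lower on the other days. Igf2 (Gene ID 16002, NCBIM37 chromosome 7, 149836673 to 149852721, minus strand) went from the highest ratio of its series to low values within a day: 2.74 on day 0 and -3.10 on day 1. On the later days its ratio was -2.21, -3.49, 0.00, -3.62, -2.11, -2.75, -2.57 and -3.59, with day 4 again apart. The mean was -1.90 ± 2.04 (SD, n = 9 days; adjusted p = 0.023) for Igf2 and -0.83 ± 1.02 (adjusted p = 0.042) for H19. The exact sign-flip permutation p, unadjusted, was 0.0352 for Igf2 and 0.0547 for H19. After adjustment that test called neither gene. Both lost their calls in limma without day 1, 3 or 14. H19 also lost it without day 2, 10 or 12. In the control line H19 rose by 0.21 ± 0.04 (SE) per day (adjusted p = 0.0047) and Igf2 by 0.27 ± 0.07 (adjusted p = 0.011, or 0.072 without day 14). The slopes in the knockdown line were 0.09 ± 0.05 and 0.07 ± 0.08, and the slopes of the ratio did not pass the test (adjusted p = 0.17 for H19 and 0.27 for Igf2). Pearson's r of the ratios of this oppositely imprinted pair over the 9 days was 0.77, as a description.

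The Snrpn-Ube3a cluster, the mouse counterpart of the Prader-Willi and Angelman region, had 6 members, of which Ndn and Magel2 had a called slope of the ratio. Ndn and Magel2 encode related proteins of the MAGE family and lie next to each other. Ndn (Gene ID 17984, NCBIM37 chromosome 7, 69493163 to 69494814, plus strand) had normalized counts of 4123, 2959, 3328, 3159, 3230, 3474, 4600, 5614, 5824 and 5657 in the control line from day 0 to day 14. In the knockdown line they were 5609, 3919, 3140, 2746, 2466, 2097, 2492, 2423, 1579 and 1729. Ndn rose in the control line by 0.07 ± 0.01 (SE) per day (adjusted p = 0.005) and fell in the knockdown line by 0.10 ± 0.02 (adjusted p = 0.016). The ratio fell by 0.16 ± 0.01 per day (adjusted p = 0.0015), and this call held under each alternative run.

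Magel2 (Gene ID 27385, NCBIM37 chromosome 7, 69521865 to 69526526, plus strand) had a slope of -0.02 ± 0.02 (SE) per day in the control line (adjusted p = 0.53), where its normalized counts stayed between 298 and 648. In the knockdown line they were 1419, 660, 535, 321, 332, 302, 291, 230, 60.3 and 46.5 from day 0 to day 14. The fall in the knockdown line was 0.29 ± 0.04 (SE) per day (adjusted p = 0.0066), and that of the ratio 0.27 ± 0.05 (adjusted p = 0.014), the latter lost without day 12 or without day 14. The slopes of the other 4 ratios were not called. Snrpn, which encodes a splicing protein, was lower in the knockdown library on 9 of 9 days, with a mean ratio of -0.89 ± 0.43 (SD, n = 9 days; adjusted p = 0.00055; exact sign-flip permutation p = 0.00391, the smallest that 9 days allow). Peg12 was likewise lower on 9 of 9 days, with a mean of -0.86 ± 0.39 (adjusted p = 0.00043; exact sign-flip permutation p = 0.00391), and Mkrn3 on 8 of 9, with a mean of -0.39 ± 0.36 (adjusted p = 0.018). The slopes of these 3 ratios lay between 0.00 and 0.04 per day. Peg12 fell in both lines, by 0.13 ± 0.03 per day in the control (adjusted p = 0.004) and by 0.09 ± 0.02 in the knockdown line (adjusted p = 0.027). Ube3a, a ubiquitin ligase expressed from the maternal allele in neurons, had a mean ratio of -0.28 ± 0.35 (adjusted p = 0.066).

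**Figure D5:**
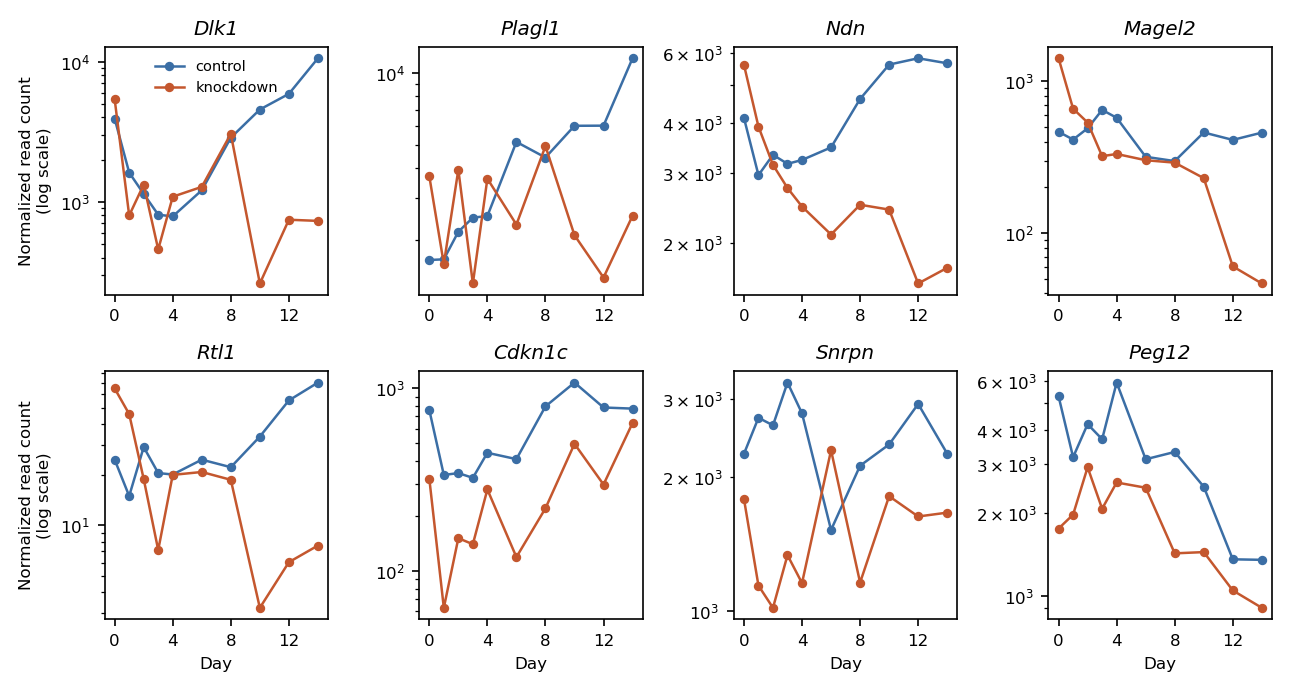
Normalized read counts (log axis) of 8 imprinted genes by day of differentiation in the control (blue) and knockdown (orange) line, 1 library per point. For Dlk1, Plagl1, Magel2 and Rtl1 the knockdown line lies on either side of the control up to day 8 and below it on days 10, 12 and 14, with 261 against 4552 for Dlk1 on day 10. For Ndn it lies below from day 2 on, while Cdkn1c, Snrpn and Peg12 lie lower in the knockdown line on the 9 days tested.

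Plagl1 (Gene ID 22634, NCBIM37 chromosome 10, 12810497 to 12851500, plus strand) encodes a paternally expressed zinc finger transcription factor known to regulate other imprinted genes. In the control line its normalized counts were 1655, 1666, 2173, 2489, 2528, 5162, 4442, 6029, 6037 and 11555 from day 0 to day 14. In the knockdown line they were 3709, 1594, 3951, 1320, 3623, 2328, 4957, 2101, 1398 and 2535. The rise in the control line was 0.19 ± 0.01 (SE) per day (adjusted p = 0.00014), against -0.03 ± 0.05 in the knockdown line. The ratio fell by 0.21 ± 0.04 per day (adjusted p = 0.019), a call lost without day 0, 12 or 14. The knockdown counts alternated between high days (0, 2, 4 and 8) and low days (1, 3, 6 and 10), which the control counts did not.

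Mest (Gene ID 17294, NCBIM37 chromosome 6, 30673547 to 30698457, plus strand), a paternally expressed gene for a hydrolase-like protein of mesodermal tissues, had ratios of -0.10, 0.64, 0.99, -0.05, 0.51, -0.46, 0.16, -1.50, -1.79 and -2.76 from day 0 to day 14. The ratio fell by 0.22 ± 0.04 (SE) per day (adjusted p = 0.013), a call lost without day 14. Copg2, which encodes a coat protein of transport vesicles, is transcribed from the opposite strand and overlaps the end of Mest, so reads of the overlap cannot be assigned. Copg2 had 2 rows, of which 1 had a ratio of 0.00 on most days and was not tested. In the other, its ratios were 2.07, 2.20, 0.95, 0.21, 0.91, -0.92, -0.20, -1.36, -2.32 and -2.38. That ratio fell by 0.33 ± 0.03 per day (adjusted p = 0.0021). Copg2 rose in the control line by 0.19 ± 0.02 per day (adjusted p = 0.00073) and fell in the knockdown line by 0.14 ± 0.03 (adjusted p = 0.025).

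Nnat (Gene ID 18111, NCBIM37 chromosome 2, 157385814 to 157388258, plus strand), a paternally expressed gene for a small membrane protein of the developing brain, lies within Blcap on the opposite strand. Its ratios were -0.20, 0.45, 0.81, -0.53, 0.96, -0.39, -0.24, -1.65, -2.09 and -2.50 from day 0 to day 14. The ratio fell by 0.21 ± 0.04 (SE) per day (adjusted p = 0.017), a call lost without day 12 or without day 14. Nnat fell in the knockdown line by 0.16 ± 0.04 (adjusted p = 0.028), and its slope in the control line was 0.06 ± 0.03.

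In the Kcnq1ot1-Cdkn1c cluster the noncoding RNA and the coding gene went different ways. Kcnq1ot1 (Gene ID 63830), a paternally expressed RNA that silences its neighbors in cis, had ratios of 1.70, 2.20, 1.79, 0.30, 0.83, 0.15, 0.69, -0.72, 0.47 and -0.04 from day 0 to day 14. It was higher in the knockdown line on 7 of 9 days, with a mean of 0.80 ± 0.95 (SD, n = 9 days; adjusted p = 0.037). The slope of the ratio was -0.14 ± 0.04 (SE; adjusted p = 0.044). Both calls were lost in most of the fits that left out a day. That of the mean was also lost under the exact sign-flip permutation test after adjustment. Cdkn1c (Gene ID 12577, NCBIM37 chromosome 7, 150644255 to 150646955, minus strand), a maternally expressed inhibitor of cyclin-dependent kinases, had fewer reads in the knockdown line on all days. Its normalized counts in the control line were 760, 335, 343, 323, 443, 409, 795, 1073, 784 and 773, and those in the knockdown line 320, 62.8, 151, 140, 279, 119, 220, 496, 297 and 645. The ratios were -1.23, -2.44, -1.18, -1.20, -0.67, -1.81, -1.83, -1.11, -1.41 and -0.25. The mean was -1.26 ± 0.63 (SD, n = 9 days), a 2.39-fold lower level (adjusted p = 0.00055; exact sign-flip permutation p = 0.00391, two-sided).

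Among the remaining members, Peg10, a retrotransposon-derived gene of the placenta, had a mean ratio of -0.73 ± 0.67 (SD, n = 9 days; adjusted p = 0.013) and ranged from -1.95 on day 14 to 0.26 on day 0. Its neighbor Sgce, which encodes a sarcoglycan, was higher in the knockdown line by 0.38 ± 0.20 (adjusted p = 0.0027). Gnas, the gene of the stimulatory G protein alpha subunit, was higher by 0.43 ± 0.30 (adjusted p = 0.0054), with Nespas antisense to it. Dcn, the gene of the matrix proteoglycan decorin, rose in both lines, by 0.27 ± 0.05 (SE) per day in the control (adjusted p = 0.0032) and by 0.21 ± 0.06 in the knockdown line (adjusted p = 0.044). Zrsr1 also rose in both, by 0.07 ± 0.01 (adjusted p = 0.0015) and 0.13 ± 0.03 (adjusted p = 0.018). Impact fell in the control line by 0.06 ± 0.01 (adjusted p = 0.0053). No call was made on the mean ratio or on its slope for Igf2r (mean -0.08, range -0.72 to 0.77), Airn (0.11, -1.24 to 1.41), Asb4 (-0.62, -2.24 to 0.92) and Grb10 (0.01, -1.35 to 1.95). Within the other clusters Pearson's r of the ratios over the 9 days, again as a description, was 0.87 for Mest and Copg2, -0.15 for Igf2r and Airn and -0.53 for Kcnq1ot1 and Cdkn1c. It ran from -0.52 (Sgce and Asb4) to 0.62 (Peg10 and Asb4) in the Peg10-Sgce cluster. In the Snrpn-Ube3a cluster it ran from -0.64 (Magel2 and Peg12) to 0.89 (Ndn and Magel2).

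The fall of the ratio was counted in genes of both parental classes. Of the 19 tested genes known to be expressed from the paternal allele, 10 had a falling ratio, and of the 9 maternal ones 2 did, against 6.74% of all genes. None of the 4 genes whose imprint depends on the tissue (Grb10, Ube3a, Gnas and Dcn) did. The 2 maternal ones were Zim1, whose tables differed by up to 0.54, and Copg2, whose reads in the overlap with the paternal gene Mest cannot be assigned. The median slope was -0.16 per day for the paternal and -0.14 for the maternal group, and the difference between the groups was not tested. In the control line 7 of 19 paternal and 7 of 9 maternal genes rose, against 19.5% of all genes.

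The last 3 days were also compared with the 6 earlier days tested, a split chosen after the values were seen. For 12 of the 32 genes the ratios of days 10, 12 and 14 each lay below the ratios of all 6 earlier days, against 8.47% of all genes. These were H19, Peg3, Usp29, Zim1, Dlk1, Rtl1, Mest, Copg2, Peg10, Plagl1, Ndn and Nnat. For 1 gene, Zrsr1, they lay above, against 12.1% of all genes.

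Steps of at least 2-fold from one sampled day to the next were counted within each line. On day 1, 12 of the 32 genes were at least 2-fold below their day 0 level, against 9.90% of all genes. On day 3, 11 were that far below day 2, against 2.23%, and on day 4, 14 were that far above day 3, against 4.36%. On day 10, 13 were that far below day 8, against 7.70%. Steps the opposite way or back lay between these. On day 2, 7 were that far above day 1, against 4.48%. On day 6, 6 were that far below day 4, against 5.1%, and on day 8, 9 were that far above day 6, against 5.71%. Those were steps of the knockdown line. In the control line 6 genes were that far below day 0 on day 1, against 3.36% of all genes. None was that far below day 2 on day 3 (1.48%), above day 3 on day 4 (0.622%) or below day 8 on day 10 (0.847%). The control line had 4 genes that far below day 3 on day 4, against 3.21%, and 8 that far above day 4 on day 6, against 9.42%. It had 3 that far above day 1 on day 2 (1.54%), 1 below day 4 on day 6 (2.97%) and 1 above day 6 on day 8 (5.44%). No step was replicated. The study's methods spread the libraries over several lanes of one flow cell without saying which library ran in which lane.

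The promoter windows of the genes with a falling ratio were examined for 2 short motifs, TGCCGC, the core bound by the imprint-keeping protein ZFP57 when methylated, and GATGGC, part of the motif of YY1. Windows run from 250 bases before to 50 after the start and come from RefSeq (GRCm38.p6), which is another build than that of the gene positions above. They were found for 28 of the members and for 11 of the 12 genes with a falling ratio (not for Rtl1). Searching both strands, TGCCGC was found for 5 of these 11 genes, for 9 of the 28 members (32.1%) and for 13.1% of 27025 genes with a window. The other 4 members with it were Grb10, Igf2, Meg3 and Snrpn, whose ratios had no called slope. GATGGC was found for 1 of the 11, 5 of the 28 and 15.9% of all. The median number of CpG dinucleotides was 17 in the 13 windows of these genes, 12 in the 42 windows of the members and 7 in all windows. The 13 windows are not all separate sequences. Mest windows starting at 30737800 and 30737803 overlap almost fully, and those of Peg3 and Usp29 share 263 of 300 bases. The windows of the 5 genes follow, to show where the matches (capitals, TGCCGC or its reverse complement GCGGCA, and in Plagl1 also the reverse complement of GATGGC) stand. A match is a description of letters and not a bound site.
Plagl1, chr10:13090582-13090881, plus strand: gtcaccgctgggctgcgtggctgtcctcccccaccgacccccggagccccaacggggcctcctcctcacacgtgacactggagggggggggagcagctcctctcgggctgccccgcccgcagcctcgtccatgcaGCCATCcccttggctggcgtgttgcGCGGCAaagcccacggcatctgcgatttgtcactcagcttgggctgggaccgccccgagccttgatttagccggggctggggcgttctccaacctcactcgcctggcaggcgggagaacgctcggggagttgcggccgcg
Mest, chr6:30737800-30738099, plus strand: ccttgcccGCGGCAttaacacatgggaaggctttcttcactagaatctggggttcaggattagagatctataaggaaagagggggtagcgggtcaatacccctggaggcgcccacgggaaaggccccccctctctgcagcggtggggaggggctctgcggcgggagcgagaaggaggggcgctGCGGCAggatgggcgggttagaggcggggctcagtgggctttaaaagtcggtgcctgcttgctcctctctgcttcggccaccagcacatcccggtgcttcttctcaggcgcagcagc
Nnat, chr2:157559828-157560127, plus strand: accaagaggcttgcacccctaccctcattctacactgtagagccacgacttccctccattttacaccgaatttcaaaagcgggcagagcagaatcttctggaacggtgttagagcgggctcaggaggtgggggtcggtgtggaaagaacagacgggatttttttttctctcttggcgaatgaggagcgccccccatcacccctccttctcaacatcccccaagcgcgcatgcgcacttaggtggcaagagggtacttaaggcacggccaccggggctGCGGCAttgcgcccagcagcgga
Zim1, chr7:6696383-6696682, minus strand: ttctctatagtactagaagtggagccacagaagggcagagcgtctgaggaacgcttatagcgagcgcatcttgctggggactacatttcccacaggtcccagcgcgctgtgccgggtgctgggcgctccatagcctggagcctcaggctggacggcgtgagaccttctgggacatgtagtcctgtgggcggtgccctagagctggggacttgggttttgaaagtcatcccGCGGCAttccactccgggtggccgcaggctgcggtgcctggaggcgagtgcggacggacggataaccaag
Copg2, chr6:30896745-30897044, minus strand: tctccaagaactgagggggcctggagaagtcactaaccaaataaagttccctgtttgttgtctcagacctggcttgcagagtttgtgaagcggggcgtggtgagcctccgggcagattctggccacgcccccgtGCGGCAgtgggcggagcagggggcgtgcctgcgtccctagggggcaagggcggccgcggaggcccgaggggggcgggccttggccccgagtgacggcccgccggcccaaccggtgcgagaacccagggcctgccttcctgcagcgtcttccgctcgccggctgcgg

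Markers of cell types also differed between the lines on days 10, 12 and 14, and some lists had parted earlier. In bulk RNA fewer cells of a type and less RNA per cell cannot be told apart. On day 8, 5 of 6 neuron, 7 of 7 pluripotency and 3 of 3 muscle markers were at least 2-fold lower in the knockdown library. Of the glia markers 6 of 8 were 2-fold higher. Of 8 fibroblast markers 1 was lower and 2 higher, and no endothelial marker passed 2-fold. Of the 32 imprinted genes 4 were lower and 4 higher that day. Of all genes 5.62% were at least 2-fold lower on day 8 and 8.66% higher. Over days 10, 12 and 14 the mean ratio was below 0 for 6 of 6 neuron markers tested (-3.10 to -1.84), 3 of 3 muscle markers (-7.20 to -5.37), 5 of 5 endothelial markers (-2.11 to -0.66), 7 of 7 pluripotency markers (-3.65 to -1.27) and 7 of 8 fibroblast markers (-2.48 to 0.05). It was above 0 for 8 of 8 glia markers (0.33 to 6.47). Neural progenitor markers were divided, with 4 of 7 below 0 (-1.29 to 1.24). The summed normalized count of the 5 neuron markers with recovered counts was 17174 to 23301 in the late control libraries and 3013 to 4169 in the late knockdown libraries. For 5 glia markers the sums were 1664 to 2733 against 45548 to 59943. Those of 5 fibroblast markers were 39939 to 54041 against 25565 to 52607. Most of these reads were Pdgfrb, with 34603, 31839 and 35801 in the control and 20760, 31678 and 44772 in the knockdown libraries of days 10, 12 and 14. Pdgfrb was thus higher in the knockdown library on day 14. The other 4 summed to 7279, 8100 and 18240 in the control and 4805, 3396 and 7835 in the knockdown libraries, lower on each of these days. The sums of 2 muscle markers were 119 to 10529 against 22.6 to 52.7. The neuron markers Map2 and Rbfox3, the muscle markers Myf5, Myod1 and Myog, the endoderm markers Afp, Apoa1 and Ttr, Tfcp2l1 of pluripotent cells and Cldn5 of endothelium had no row or lay below the filter, as did 5 of 6 trophoblast markers. Endoderm markers had 4 of 5 below 0 (-0.54 to 0.77), and the trophoblast marker Krt7 stood at -1.48. Their part in the ratios of the imprinted genes was not tested.

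Over the whole course, 26.7% of all genes were lower in the knockdown line and 26.3% higher. Of the neuron markers 5 of 6 were lower and none higher, with mean ratios given in parentheses: Stmn2 (-2.01), Elavl4 (-1.99), Dcx (-1.99), Tubb3 (-1.88) and Syt1 (-0.95). Of the pluripotency markers 7 of 7 were lower, led by Zfp42 (-3.43), Tdgf1 (-3.38), Nanog (-2.84), Dppa5a (-2.78), Pou5f1 (-2.63) and Esrrb (-2.44). The muscle markers Acta1 (-5.03), Des (-3.86) and Actc1 (-3.77) were lower in 3 of 3 cases, and so were 2 of 5 endothelial markers, Pecam1 (-1.70) and Emcn (-1.15). Of the glia markers 5 of 8 were higher and none lower, namely S100b (3.63), Olig2 (3.02), Aqp4 (1.35), Gfap (1.34) and Slc1a3 (0.73). The other lists were divided. Of 7 neural progenitor markers Vim (0.91) and Sox2 (0.52) were higher and Pax6 (-1.36) was lower, of 8 fibroblast markers Fbn1 (0.74) was higher and Lum (-1.07) and Postn (-0.70) were lower, and of 5 endoderm markers Foxa2 (1.24) was higher and Sox17 (-1.89) was lower. The single trophoblast marker tested was not called.

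Genes that keep imprints or act on the same growth pathway were read from lists of their own. Of 19 genes of imprint maintenance and DNA methylation 14 were lower in the knockdown line, against 26.7% of all genes, and none higher, against 26.3%, with a median mean ratio of -0.72. The largest differences were those of Zfp42 (-3.43; a pluripotency marker as well), Dppa3 (-3.08), which protects maternal methylation in the zygote, Dnmt3b (-1.81), a de novo DNA methyltransferase, Hells (-1.67), Tet1 (-1.61), an enzyme that oxidizes methylcytosine, and Uhrf1 (-1.14), the partner of Dnmt1 at replication. Genes named in what follows for a slope of the ratio were chosen after their values were seen. Of these 19 ratios 1 changed with time, against 14.3% of all genes. It was that of Eed, which rose by 0.05 per day (adjusted p = 0.034).

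Of 14 genes of insulin-like growth factor signaling 5 were higher and 5 lower (35.7% each way, against 26.3% and 26.7% of all genes). Igf2bp1 (-2.31), Igf2bp3 (-0.99) and Igf2bp2 (-0.86), which encode proteins that bind Igf2 mRNA, were lower, and Igfbp3 (1.19), Igfbp5 (1.09) and Irs2 (0.80) higher. The ratio fell with time for 2 of the 14, Igf1 (-0.27 per day, adjusted p = 0.0071) and Igfbp4 (-0.14, adjusted p = 0.01), against 6.74% of all genes. Of 24 further imprinted genes tested, 6 were higher and 6 lower, close to the shares of all genes (26.3% and 26.7%). Those with the largest means were Calcr (-1.94), Begain (-1.77), Sfmbt2 (-1.27), Nap1l5 (1.17), Slc38a4 (-1.0) and Cd81 (0.92). The ratio fell with time for 3 of the 24, against 6.74% of all genes, and rose for none, against 7.51%. The 3 were Begain (-0.25 per day, adjusted p = 0.012), Zdbf2 (-0.20, adjusted p = 0.049) and Inpp5f (-0.14, adjusted p = 0.0029). The median ratio of the 24 was 0.10 on day 0, 0.16 on day 3, and -0.07, -0.28 and -0.21 on days 10, 12 and 14. On those last 3 days 7, 6 and 5 were at least 2-fold lower, against 11.3%, 11.5% and 10.7% of all genes, and 3, 0 and 2 were 2-fold higher. The day counts given earlier are those of the 32 listed genes only.

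Day 6, which the study left out as discrepant, was below 0 for 23 of the 32 genes, against 50.0% of all genes, with a median ratio of -0.34. It lay outside the range of the other 9 days for 7 genes, against 44.2% of all genes. It was below it for 4, against 22.8%, namely Igf2 (-3.62), Airn (-1.71), Sgce (-0.13) and Gnas (-0.45), and above it for 3, against 21.4%, namely Snrpn (0.57), Peg12 (-0.37) and Impact (0.49). Of the 4 members below the filter, Ascl2, a trophoblast transcription factor, had normalized counts of 2.63 to 14.1 in the control and 1.16 to 11.7 in the knockdown line. Those of the other 3 were not recovered, and their ratios ranged from -3.70 to 2.84 for Phlda2, from -3.21 to 2.39 for Slc22a18 and from -1.45 to 1.05 for Nespas, over the 9 days, and no test was made for them.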

How the data were processed

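RNA was sequenced from 1 library per line and day (20 libraries), with a kit that does not mark strand. Per the labels and the study's methods, the authors aligned reads to mm9 (NCBI37) with CASAVA 1.8.2 and normalized them with DESeq. The 28 deposited tables hold log2 values of 2 libraries each, centred on their mean, so that differences within a table are log2 ratios. Slopes within a line were fitted to the added steps of its consecutive-day tables. The control table of days 3 and 4 entered these slopes and the step counts. It was left out of the recovery of counts and of the check of how far a gene's tables differ. With this step taken through the knockdown tables, the control trend called 5623 genes of all, against 5795. The control rise of Mirg then lost its call. Normalized counts were recovered from the rounding of the log2 values for 8820 genes, in parts of 1/49 read, and gave back 83.8% of the deposited values exactly. Genes whose typical log2 count reached 4 were tested with limma 3.58.1 (R 4.3.3), with Benjamini-Hochberg adjustment over 13339 genes and a threshold of 0.05. Each fit used 9 days, without day 6. The knockdown and control libraries of a day were paired as a ratio. Days stand in for replicates, so p-values measure the spread over days of 1 culture series per line. Exact sign-flip permutation tests over days (two-sided) were added for single genes, and the p-values printed with those genes are unadjusted. Positions are those of GENCODE on NCBIM37, and promoter windows those of RefSeq on GRCm38.p6. Members and gene lists were chosen with earlier results of these data known. Values of each day are given for genes whose ratio changed with time, for genes with a called mean ratio of at least 1, and for the H19 and Dlk1 clusters. From each other list the 6 called genes with the largest mean are named. The code was tested on simulated data.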

Additional observations from a re-analysis of the deposited data

Results flagged for a closer look

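The change with time differed between the lines for 12 imprinted genes, by the test of the difference itself (limma, slope of the ratio on day, adjusted p under 0.05). The slope in log2 per day was -0.24 for Peg3, -0.31 for Usp29, -0.45 for Zim1, -0.30 for Dlk1, -0.33 for Rtl1 and -0.22 for Mest. It was -0.33 for Copg2, -0.21 for Plagl1, -0.14 for Kcnq1ot1, -0.16 for Ndn, -0.27 for Magel2 and -0.21 for Nnat. Among the 9 days without day 6, no single day stood apart from the others in the ratios of the 32 genes by Dixon's test. Chance would pass that test in about 1 of 20 genes, and day 6 was not put to it.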

How the results depend on the processing

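No result changed its direction under the alternatives run. The number of imprinted genes called in the line difference (12) ran from 9 to 15 when a day was left out, and over all genes (7069) from 6206 to 7194. For the control trend the ranges were 13 to 22 (17) and 4498 to 6140 (5795). For the knockdown trend they were 2 to 14 (13) and 195 to 2885 (1683), with 2 imprinted genes called without day 14, 3 without day 12, 5 without day 2 and 7 without day 10. For the slope of the ratio they were 4 to 14 (12) and 614 to 1663 (1901), with 4 called without day 12 and 4 without day 14. On log2(day + 1) the control trend called 3804 genes of all, and the knockdown trend 4 imprinted genes and 114 of all. With all 10 days the slope of the ratio called 1058 genes of all. Without the replicate block, which pairs the libraries of a day, the line difference called 12 imprinted genes and 5660 of all, and the calls of H19, Peg10 and Mkrn3 were lost. The exact sign-flip permutation test, after adjustment, called 8 of the 32 genes, and the calls of H19, Igf2, Mirg and Kcnq1ot1 were lost. Leaving out genes whose tables differed by over 0.1, an alternative chosen after seeing the data, gave 11, 13, 12 and 10 calls in the 4 comparisons. Calls that held under each alternative in which the gene was tested numbered 6 of 12, 11 of 17, 2 of 13 and 3 of 12. The cause of these changes was not tested.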
